A study of Drosophila melanogaster with 12 samples.

Results

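The miRNAs described here are the fly relatives of vertebrate miR-29, namely miR-285, miR-995 and miR-998, whose 3p arms carry the miR-29 seed. Their rows were found by hairpin name, as every row of the deposited table that belongs to mir-285, mir-995 or mir-998. This gave 3 hairpins of 238 and 6 mature arms of 408 rows, and all 6 arms passed the filter on low values. That the 3p arms share this seed is taken from the rule as background, and their sequences were not analysed here. Their levels were measured in small RNAs that were immunoprecipitated with AGO1, the main Argonaute partner of fly miRNAs, from heads of Canton-S, a wild-type laboratory strain. Flies lived in light and dark cycles at a low (18°C), a middle (25°C) or a high (29°C) temperature, and their heads were collected at ZT3, ZT9, ZT15 and ZT21, where ZT counts the hours from lights on. Each combination of temperature and time gave 1 library, so that a temperature had 4 libraries, which served as its replicates (n = 4). All groups thus shared the strain, the tissue, the antibody and the lighting schedule and differed in temperature. Whether the temperatures were processed and sequenced together was not given, and a batch of that kind could not be told apart from temperature. Whole heads hold many cell types, and the age, sex and number of flies and the time spent at each temperature were not given in the sources used here. Nothing in the labels says that the 4 libraries of a temperature came from separate cultures, so the tests below measure the spread between these libraries, time of day included.

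A miRNA hairpin is cut into a short duplex whose strands are called the 5p and the 3p arm, and Argonaute usually keeps one of them and discards the other. The kept arm finds its mRNAs mostly through its seed, a few bases near its 5′ end, so miRNAs with the same seed can act on overlapping sets of mRNAs while their other arms need not. In vertebrates miR-29 is known for repressing collagens and other matrix genes, and in flies miR-285 is known for limiting Yorkie signalling in the glia of the blood-brain barrier and miR-998 for limiting cell death.

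The 3 hairpins lie far apart on the third chromosome (coordinates of build BDGP6.54, Ensembl annotation). The hairpin mir-285 (FBgn0262401) occupies 3L:11946093-11946191 on the minus strand, between the genes CG5883 and CG7252, in no annotated gene. The hairpin mir-995 (FBgn0262185) occupies 3R:20735923-20736012 on the plus strand, in an intron of Cdk2 on the strand of that gene, in all 3 of its transcripts. Cdk2 encodes a cyclin-dependent kinase of the cell cycle. The hairpin mir-998 (FBgn0262405) occupies 3R:21621879-21622021 on the minus strand, in an intron of E2f1 on the strand of that gene, in all 6 of its transcripts. E2f1 encodes a transcription factor that drives entry into DNA replication. Within 10 kb of any member there was 1 other measured hairpin, mir-11 (3R:21622497-21622571, minus strand), which lies in an E2f1 intron as well, 475 bases from mir-998. Its arms are given beside those of mir-998 as the neighbour from the same host gene.

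A value below is the deposited one, the reads of an arm after division by its library's size factor, that is, reads at a common depth. The libraries held 4423511 to 16840372 miRNA reads, the shallowest at 29°C and ZT21, and 3 reads corresponded to a value of 1.97 to 7.65. Of the 7 marker miRNAs of neurons, sensory organs and muscle, none was at 0 in any library. Between 18°C and 29°C the neuronal miR-124-3p was higher at 18°C (log2 fold change 0.72, limma adjusted p 0.0390) and the neuronal miR-1000-5p was lower (log2 fold change -0.70, adjusted p 0.000914), and the other 5 did not pass. The muscle markers summed to between 195931 and 666663 over the 12 libraries, with overlapping ranges at the 3 temperatures. The 18 arms of clusters known from testis summed to 226 to 380, and 13 of them had a mean under 10 reads. Of the 6 that were tested, 2 passed between 18°C and 29°C, both lower at 18°C, where 39.8% of all miRNAs passed in either direction. These were miR-963-3p (log2 fold change -1.61, limma adjusted p 0.0173) and miR-964-5p (-1.54, adjusted p 0.00129). Of those that did not pass, miR-960-3p (-0.88) and miR-984-5p (-0.45) were lower at 18°C. The more abundant miR-982-5p (0.70, adjusted p 0.0597) and miR-983-5p (0.21) were higher. Between 29°C and 25°C 1 passed, miR-964-5p (1.35, adjusted p 0.0113), higher at 29°C, where 11.9% of all miRNAs passed. The part of these arms in the members' differences was not tested.

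The family spanned a wide range of levels. Over the 12 libraries miR-998-3p was the most abundant member, with a mean value of 6144, rank 65 of 403 miRNAs and 0.0574% of the miRNA reads. The arms of mir-285 followed at nearly the same mean, 1897 for miR-285-5p and 1891 for miR-285-3p, at ranks 83 and 84. The arms of mir-995 had means of 1026 for miR-995-5p (rank 98) and 922 for miR-995-3p (rank 103). The least abundant member was miR-998-5p, with a mean of 163 and rank 147, and its 46 to 323 reads per library made it the member with the largest counting error. In this order, miR-998-3p lay above every other member in every library and miR-998-5p below. Over all temperatures the ranges of miR-285-5p and miR-285-3p overlapped, but their order was fixed within each temperature: every library at 18°C had more of the 5p arm, and every other library more of the 3p arm. The ranges of miR-995-5p and miR-995-3p overlapped at 25°C and at 29°C, while every 18°C value of the 5p arm was above every one of the 3p arm. Ligation and PCR preferences of single sequences are not corrected in these values, so levels of different miRNAs are less comparable than changes of one miRNA between libraries. The neighbour miR-11-3p was far more abundant than any member, with a mean of 180366 and rank 13.

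**Figure D1:**
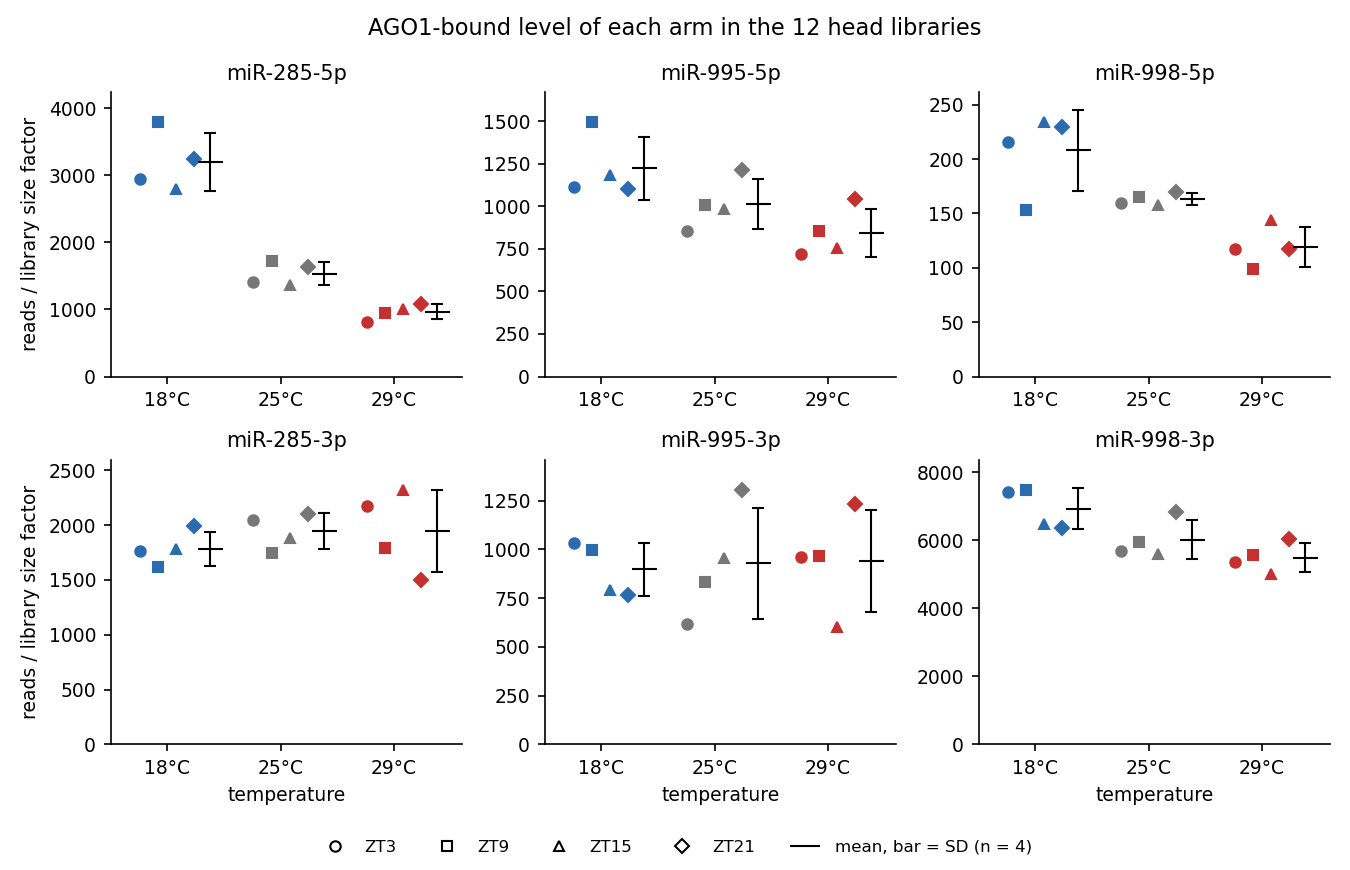
Deposited value (reads over the library size factor) of each of the 6 arms in the 12 libraries, by temperature, with 1 point per library shaped by time point and the mean with its SD (n = 4) to the right of each group. The 5p arms in the top row decline from 18°C to 29°C, most of all miR-285-5p, whose 3 groups do not overlap, while miR-285-3p and miR-995-3p overlap at all temperatures.

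The strongest temperature difference of the family was that of miR-285-5p, the arm that does not carry the miR-29 seed. At 18°C its values were 2951, 3786, 2801 and 3241 at ZT3, ZT9, ZT15 and ZT21. At 25°C they were 1414, 1716, 1358 and 1636, and at 29°C 818, 952, 1009 and 1084. Every 18°C library thus lay above every 25°C library, and every 25°C library above every 29°C library. The means were 3195 ± 435 at 18°C, 1531 ± 172 at 25°C and 966 ± 112 at 29°C (SD, n = 4 each), a ratio of 3.31 between 18°C and 29°C. In limma the log2 fold change was 1.72 between 18°C and 29°C (SE 0.130, 95% interval 1.44 to 2.00, adjusted p 4.0e-07) and 1.06 between 18°C and 25°C (SE 0.130, 0.78 to 1.34, adjusted p 0.000303). Between 29°C and 25°C it was -0.66 (-0.94 to -0.38, adjusted p 0.00518), past the threshold on p and short of the 2-fold limit. The call between 18°C and 25°C rested on the fold limit: the log2 fold change was 0.97 without the 18°C ZT9 library and 0.99 with TMM scaling, both under 1. In whole heads, fewer cells that hold a miRNA and less of it per cell cannot be told apart.

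The other arm of the same hairpin, miR-285-3p, is the one with the miR-29 seed. Its values were 1759, 1613, 1777 and 1987 at 18°C, 2044, 1743, 1884 and 2103 at 25°C, and 2177, 1788, 2317 and 1495 at 29°C. The groups overlapped in all 3 comparisons, and the highest and the lowest library were both at 29°C. The means were 1784 ± 154, 1944 ± 163 and 1944 ± 374 (SD, n = 4 each). The log2 fold change was -0.11 between 18°C and 29°C (limma, 95% interval -0.40 to 0.19, adjusted p 0.582), -0.12 between 18°C and 25°C (adjusted p 0.572) and -0.02 between 29°C and 25°C (adjusted p 0.968). The interval allows miR-285-3p to be lower at 18°C by up to 0.40 on the log2 scale, and it ends below the interval of miR-285-5p.

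The arms of mir-995, the Cdk2 intron hairpin, were close to each other in level, and only the 5p arm passed a temperature comparison. The values of miR-995-5p were 1115, 1492, 1182 and 1099 at 18°C, 852, 1006, 982 and 1211 at 25°C, and 722, 852, 757 and 1041 at 29°C. All 18°C libraries lay above all 29°C libraries, by a margin of 58.5 between the nearest ones, and 25°C overlapped with both. The means were 1222 ± 184, 1013 ± 148 and 843 ± 143 (SD, n = 4 each), a ratio of 1.45 between 18°C and 29°C. The log2 fold change was 0.54 between 18°C and 29°C (limma, SE 0.151, 95% interval 0.21 to 0.86, adjusted p 0.0111), 0.27 between 18°C and 25°C (adjusted p 0.238) and -0.27 between 29°C and 25°C (adjusted p 0.316). So miR-995-5p was higher at 18°C than at 29°C, with 25°C between them and not separated from either.

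The 3p arm of mir-995 carries the shared seed and was the most variable member at 25°C and 29°C. The values of miR-995-3p were 1035, 994.9, 791 and 766 at 18°C, 619, 833, 958 and 1303 at 25°C, and 961, 968, 600.2 and 1232 at 29°C. The 3 temperatures overlapped, and at both 25°C and 29°C the ZT21 library was the highest. The coefficient of variation at 25°C was 30.8%, where counting error alone gives 3.02%. The means were 897 ± 138, 928 ± 286 and 940 ± 259 (SD, n = 4 each), and no comparison passed the test. The log2 fold change was -0.03 between 18°C and 29°C (limma, 95% interval -0.55 to 0.48, adjusted p 0.947). This interval ends below the 0.54 of miR-995-5p and overlaps with that arm's interval of 0.21 to 0.86. The arm ratio of mir-995, given with those of the other hairpins, tests the difference between these arms directly.

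The most abundant member, miR-998-3p, changed by a small amount. Its values were 7419, 7464, 6476 and 6351 at 18°C, 5678, 5951, 5600.1 and 6841 at 25°C, and 5363, 5556, 5009 and 6025 at 29°C. Every 18°C library lay above every 29°C library, with the nearest ones 326 apart, and the 25°C libraries overlapped with both. The means were 6928 ± 596, 6017 ± 569 and 5488 ± 424 (SD, n = 4 each), a ratio of 1.26 between 18°C and 29°C. The log2 fold change was 0.34 (limma, SE 0.104, 95% interval 0.11 to 0.56, adjusted p 0.0188), while against 25°C the difference was 0.20 for 18°C (adjusted p 0.191) and -0.13 for 29°C (adjusted p 0.496). Leaving out the 18°C ZT3, the 18°C ZT9 or the 29°C ZT15 library took the adjusted p to 0.0607, 0.0576 and 0.0573.

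The scarce arm miR-998-5p had values of 216, 153, 234 and 229 at 18°C, 160.0, 165, 157 and 169 at 25°C, and 118, 98.7, 144 and 117 at 29°C. The 29°C libraries lay below all others, and the 18°C ZT9 library was the only one at 18°C below those at 25°C. The means were 208 ± 37.5, 163 ± 5.36 and 119 ± 18.6 (SD, n = 4 each), a ratio of 1.74 between 18°C and 29°C. The log2 fold change was 0.79 between 18°C and 29°C (limma, SE 0.166, 95% interval 0.43 to 1.14, adjusted p 0.00172), 0.33 between 18°C and 25°C (adjusted p 0.184) and -0.46 between 29°C and 25°C (-0.82 to -0.10, adjusted p 0.0874). At 25°C the 4 values of miR-998-5p were closer together than counting error gives, with a coefficient of variation of 3.29% against 7.35%, and in every other group of the 6 arms the spread was above counting error.

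The neighbour in the E2f1 intron, mir-11, had 0 of 2 arms past the threshold. From the low to the high temperature the means were 201305 ± 25168, 173245 ± 9730 and 166548 ± 20919 for miR-11-3p, and 8310 ± 1183, 7690 ± 993 and 7677 ± 1336 for miR-11-5p (SD, n = 4 each). The groups overlapped for both arms in all comparisons. The log2 fold change between 18°C and 29°C was 0.27 for miR-11-3p (limma, adjusted p 0.0834) and 0.12 for miR-11-5p (adjusted p 0.549), and neither passed between the other temperatures. The value of miR-11-3p is close to the 0.34 of miR-998-3p, and whether the 2 hairpins differ was not tested. Leaving out the 18°C ZT21 or the 29°C ZT21 library brought miR-11-3p to an adjusted p of 0.0225 and 0.0393, and scaling to total reads to 0.0167 at a log2 fold change of 0.37.

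**Figure D2:**
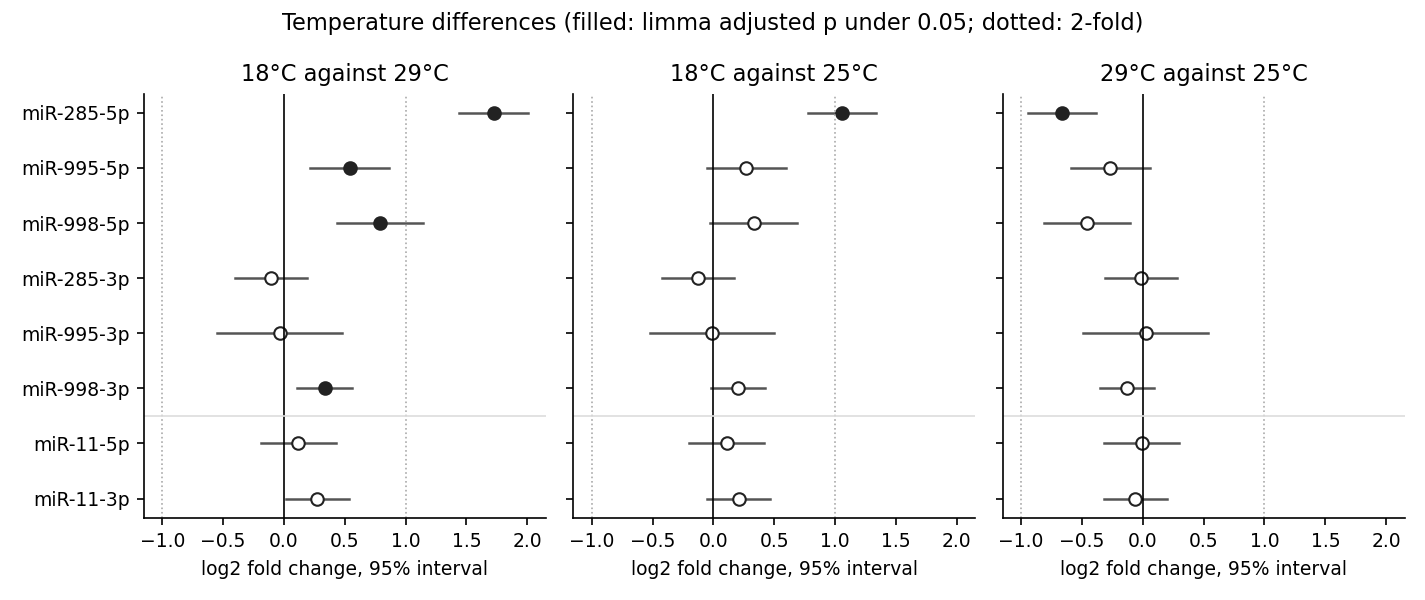
Log2 fold change with its 95% interval from limma for the 6 arms and, under the grey line, the neighbour mir-11, in 3 comparisons of temperatures (first against second), with filled points at an adjusted p under 0.05 and dotted lines at a 2-fold change. Between 18°C and 29°C the filled points are the 5p arms of all 3 hairpins and miR-998-3p, all to the right of 0, and only miR-285-5p is past 2-fold.

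Counted over the family, 4 of the 6 arms passed the adjusted p between 18°C and 29°C, all of them higher at 18°C, where 39.8% of the 244 miRNAs tested passed in either direction and 20.9% did so higher at 18°C. With the limit of a 2-fold change 1 of 6 was called, miR-285-5p, against 16% of all miRNAs in either direction and 9.84% in this one. The groups did not overlap for 4 of 6, all higher at 18°C, against 38.9% of all miRNAs and 20.1% in this direction. The median log2 fold change was 0.44 over the 6 arms, 0.79 over the 5p arms and -0.03 over the 3p arms, beside 0.03 over all miRNAs tested. The 4 arms that passed were the 5p arms of all 3 hairpins and miR-998-3p. The summed neuronal markers were 4351 to 5606 at 18°C and 5202 to 6920 at 29°C, with overlap, and the part of miR-124-3p and miR-1000-5p, which moved in opposite directions, was not tested.

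Between 18°C and 25°C the single arm past the adjusted p was miR-285-5p, 1 of 6, where 19.7% of all miRNAs passed and 11.1% did so higher at 18°C. Past 2-fold as well were 4.1% of all miRNAs, and 3.69% higher at 18°C. It was also the single arm without overlap, against 24.6% of all miRNAs and 12.3% in this direction. The summed neuronal markers were 4351 to 5606 at 18°C and 5958 to 7250 at 25°C, lower in every 18°C library. Among their 3 members miR-137-3p passed the test (log2 fold change -0.53, limma adjusted p 0.0217). The scarcer miR-124-3p went the other way (0.14, adjusted p 0.739) and miR-1000-5p was lower (-0.26, adjusted p 0.199), and neither passed. The part of these markers in the difference of miR-285-5p, which was higher at 18°C, was not tested. Between 29°C and 25°C again 1 of 6 passed the adjusted p, miR-285-5p at the lower value at 29°C, against 11.9% of all miRNAs and 7.38% in this direction, and 0 of 6 was called with the fold limit, against 3.28%. The 2 arms without overlap were miR-285-5p and miR-998-5p, against 16.8% of all. In this comparison the neuronal miR-137-3p was lower at 29°C (log2 fold change -0.56, limma adjusted p 0.0214) and miR-1000-5p higher (0.44, adjusted p 0.0489), and their part was not tested. These comparisons share libraries, so their counts are not independent of each other.

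The arm ratio, log2 of the 5p reads over the 3p reads of one hairpin, does not depend on the scaling of a library. It is built from the same reads as the levels above. In mir-285 the 5p arm made up 62.7%, 70.1%, 61.2% and 62.0% of the reads of both arms at 18°C, at ZT3, ZT9, ZT15 and ZT21. At 25°C it made up 40.9%, 49.6%, 41.9% and 43.7%, and at 29°C 27.3%, 34.7%, 30.3% and 42.0%. The more abundant arm was the 5p arm in all 4 libraries at 18°C and the 3p arm in all 8 others, and the 18°C libraries overlapped with neither of the other temperatures. The mean share of the 5p arm at 18°C was 64.0% ± 4.13, at 25°C it was 44.0% ± 3.9 and at 29°C 33.6% ± 6.39 (SD, n = 4 each). The log2 arm ratio of mir-285 differed by 1.83 between 18°C and 29°C (limma, SE 0.219, 95% interval 1.36 to 2.30, adjusted p 1.6e-05), by 1.18 between 18°C and 25°C (0.71 to 1.65, adjusted p 0.00435) and by -0.65 between 29°C and 25°C (-1.12 to -0.18, adjusted p 0.0566). The last passed the threshold without the 18°C ZT9 library (adjusted p 0.0466) or without the 29°C ZT21 library (-0.83, adjusted p 0.0131). With the time point as replicate block, which pairs the libraries of these temperatures, its adjusted p was 0.0342 in the fit of all 12 libraries and 0.0662 in a fit of these 8 alone. Among the 89 hairpins tested, whose arms both averaged 10 reads or more, it had the second largest change between 18°C and 29°C in either direction (rank 2) and the largest toward the 5p arm, and rank 4 between 18°C and 25°C.

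In mir-995 the 5p arm made up 51.9%, 60%, 59.9% and 58.9% of the reads at 18°C, 57.9%, 54.7%, 50.6% and 48.2% at 25°C, and 42.9%, 46.8%, 55.8% and 45.8% at 29°C. It was the more abundant arm in all 4 libraries at 18°C and in 1 of 4 at 29°C, and the ranges overlapped. The log2 arm ratio differed by 0.57 between 18°C and 29°C (limma, SE 0.201, 95% interval 0.14 to 1.00, adjusted p 0.0276). Against 25°C the difference was 0.28 for 18°C (adjusted p 0.309) and -0.29 for 29°C (adjusted p 0.349). The call between 18°C and 29°C was lost without any of 5 single libraries, 18°C ZT9, ZT15 and ZT21 and 29°C ZT3 and ZT9, with adjusted p-values of 0.0676, 0.0609, 0.0560, 0.0876 and 0.0613.

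In mir-998 the 3p arm held nearly all reads at each temperature. The share of its 5p arm was 2.83%, 2.01%, 3.48% and 3.49% at 18°C, 2.74%, 2.70%, 2.74% and 2.42% at 25°C, and 2.15%, 1.75%, 2.79% and 1.91% at 29°C. The ranges at 18°C and 29°C overlapped, and the ZT9 library had the lowest share at both temperatures. The log2 arm ratio of mir-998 differed by 0.45 between 18°C and 29°C (limma, SE 0.193, 95% interval 0.04 to 0.87, adjusted p 0.0561), short of the threshold, which it passed without the 18°C ZT9 library (0.63, adjusted p 0.0105) or without the 29°C ZT15 library (0.59, adjusted p 0.0213). In mir-11, whose 3p arm also dominates, the share of the 5p arm at 18°C was 3.96% ± 0.167, at 25°C it was 4.27% ± 0.664 and at 29°C 4.39% ± 0.278 (SD, n = 4 each). The ratio of mir-11 differed by -0.15 between 18°C and 29°C (adjusted p 0.344), on the other side of 0 from the members.

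**Figure D3:**
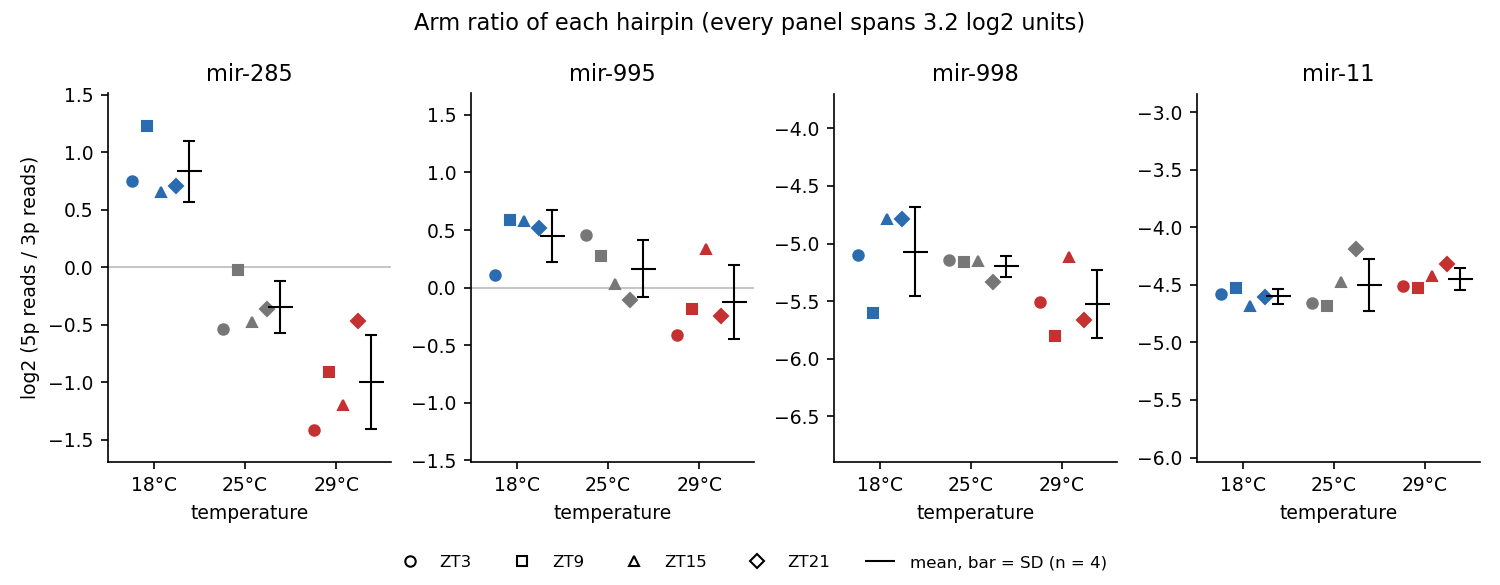
Log2 ratio of 5p to 3p reads of the 3 hairpins and of mir-11 in the 12 libraries, by temperature, with 1 point per library shaped by time point, the mean with its SD (n = 4) and a grey line where both arms are equal. The mir-285 ratio is above 0 in all 18°C libraries and below 0 in all others, and the mir-995 ratio crosses 0 with overlap.

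Of the 3 hairpins, 2 were called for the arm ratio between 18°C and 29°C, both toward the 5p arm at 18°C, where 56.2% of the 89 hairpins were called in either direction and 30.3% in this one. The groups did not overlap for 1 of 3, against 41.6% of all. Between 18°C and 25°C the count was 1 of 3, mir-285, against 24.7% of all hairpins and 14.6% in this direction, and it was also the 1 hairpin without overlap, against 23.6% of all. Between 29°C and 25°C the count was 0 of 3 (1 of 3, mir-285, with the block over 12 libraries), against 16.9% of all hairpins called and 19.1% without overlap.

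**Figure D4:**
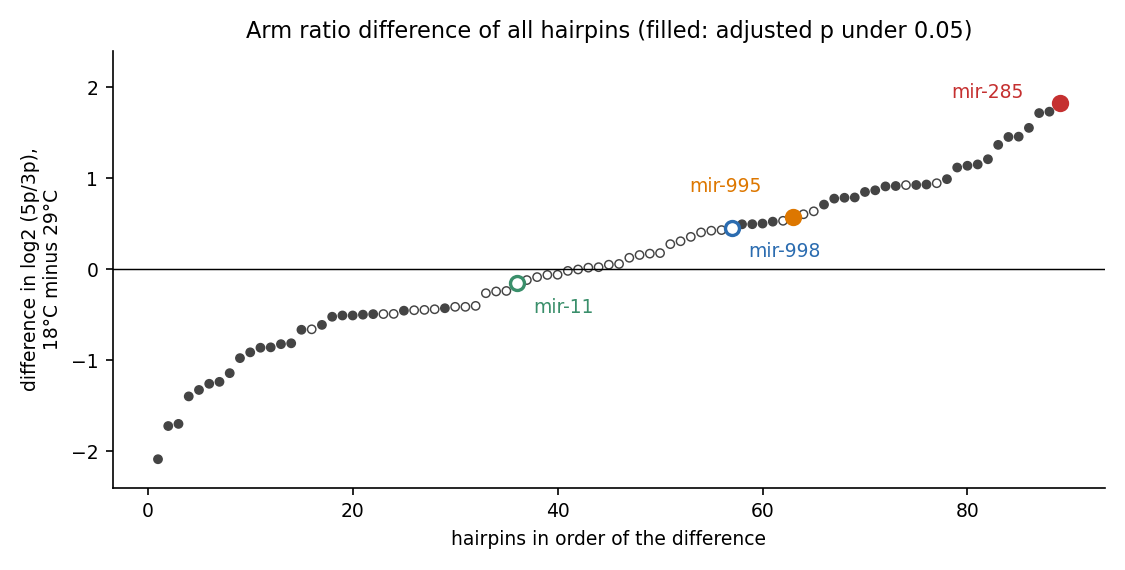
Difference in the log2 ratio of 5p to 3p reads between 18°C and 29°C for all 89 hairpins tested, in order of the difference, with filled points at a limma adjusted p under 0.05. At 1.83 mir-285 is the last point on the right, mir-995 at 0.57 and mir-998 at 0.45 lie inside the range of many other hairpins, and mir-11 lies at -0.15.

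Because the 3p arms share a seed, their summed level is given as a description with no test. Preferences of single sequences are not corrected in the sum or the shares. The sum is also not the whole amount of the seed, as other miRNAs that carry it were not searched. The sum of the 3p arms at 18°C was 9608 ± 620, at 25°C it was 8889 ± 908 and at 29°C 8372 ± 348 (SD, n = 4 each). Its lowest library at 18°C (9045) was above the highest at 29°C (8752), and 25°C overlapped with both. Most of the sum was miR-998-3p, with 72.0% ± 1.83 at 18°C, 67.7% ± 1.55 at 25°C and 65.5% ± 2.83 at 29°C. The share of miR-285-3p was 18.7% ± 2.59, 21.9% ± 1.91 and 23.4% ± 5.24, and that of miR-995-3p 9.29% ± 0.839, 10.3% ± 2.27 and 11.1% ± 2.69. The sum of the 5p arms moved over a wider range, 4625 ± 559 at 18°C, 2707 ± 289 at 25°C and 1928 ± 240 at 29°C, with no overlap between any pair of temperatures. The share of miR-285-5p in it was 69.0% ± 1.90, 56.6% ± 2.67 and 50.2% ± 1.92. On the log2 scale the ratio of the mean sums at 18°C and 29°C was 0.20 for the 3p arms and 1.26 for the 5p arms.

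**Figure D5:**
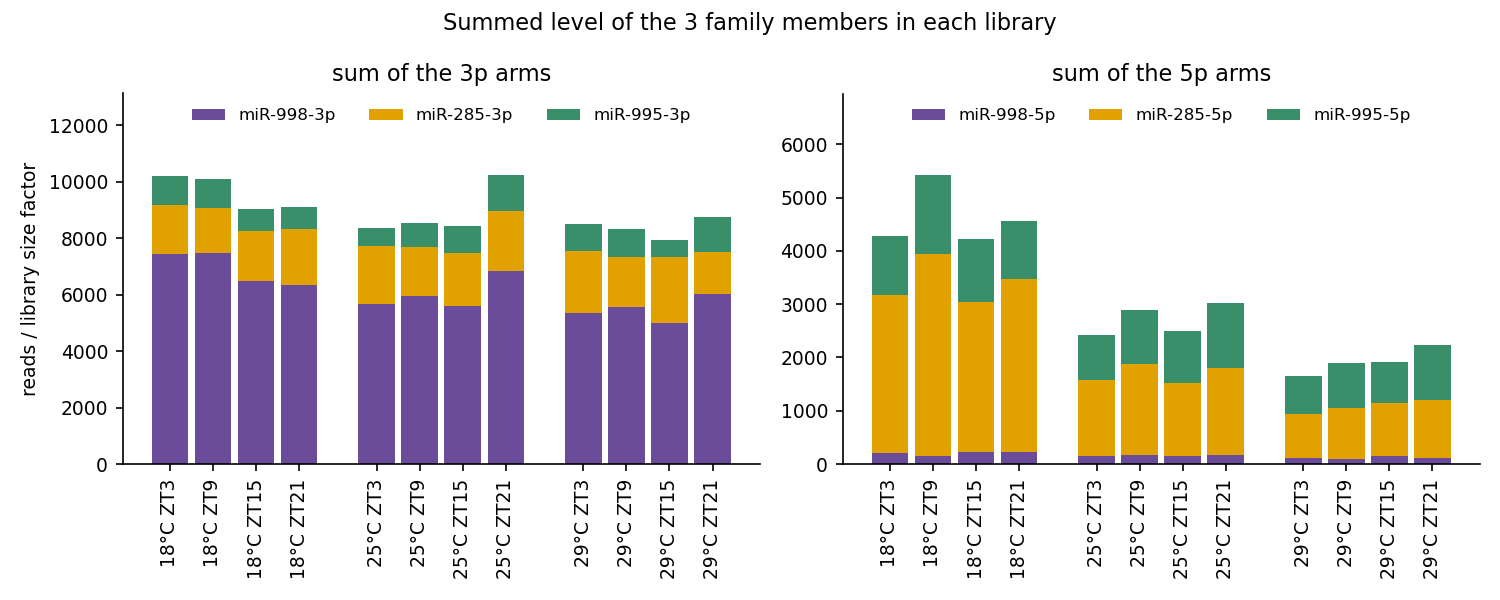
Summed deposited value of the 3p arms (left) and the 5p arms (right) in each of the 12 libraries, with bar segments for the 3 members and both axes starting at 0. The 3p sum stays between 7925 and 10247 and is mostly miR-998-3p, and the 5p sum goes from 5432 in the 18°C ZT9 library to 1658 in the 29°C ZT3 library.

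Whether members changed by different amounts was tested on the ratio of pairs of them within a library, with a two-sided exact permutation test of 4 libraries against 4, which cannot go below 0.0286, for 6 pairs. The log2 ratio of miR-285-5p to miR-995-5p at 18°C was 1.39 ± 0.132, at 25°C it was 0.60 ± 0.174 and at 29°C 0.20 ± 0.151 (SD, n = 4 each). It was higher in every 18°C library than in any 29°C library, a difference of 1.18 (exact permutation p 0.0286, 0.0857 after adjustment over the 6 pairs). The ratio of miR-285-5p to miR-998-5p also separated the temperatures, with means of 3.94 ± 0.463 and 3.01 ± 0.250 at 18°C and 29°C and a difference of 0.93 (exact permutation p 0.0286, adjusted 0.0857). Both ratios thus separated all 8 libraries by temperature, and neither difference passed after adjustment. Both had the smallest possible p, which the adjustment over 6 pairs took to 0.0857 because no other pair reached it. The adjusted test could therefore not pass them, and it does not decide whether these members changed by different amounts. The pair of miR-995-5p and miR-998-5p differed by -0.25 with overlap (exact permutation p 0.4, adjusted 0.48). Among the 3p arms the ratio of miR-285-3p to miR-998-3p differed by -0.44 (exact permutation p 0.114), that of miR-995-3p to miR-998-3p by -0.37 (p 0.143) and that of miR-285-3p to miR-995-3p by -0.07 (p 0.857), with adjusted p-values of 0.214, 0.214 and 0.857.

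Time of day was tested with temperature as covariate over 252 miRNAs. None of the 6 arms passed, with adjusted p-values from 0.863 to 0.869 (limma F test), and 0 of 6 had an unadjusted p under 0.05. Over all miRNAs the share was 0% at the adjusted p and 4.76% at the unadjusted one, and each time point had 3 libraries. The smallest unadjusted p-values were those of miR-285-5p (0.142) and miR-995-5p (0.167). Both were below their temperature's mean at ZT3 in 3 of 3 temperatures, by 0.15 and 0.19 on average on the log2 scale, and miR-285-5p was above it at ZT21 in 3 of 3. In miR-998-3p the ZT15 library was below the mean of its temperature in 3 of 3, and in miR-285-3p the ZT9 library was. For miR-995-5p the ZT9 library was above this mean in 3 of 3 and the ZT15 library below it in 3 of 3. How often 3 of 3 agree over all miRNAs was not counted, so these agreements are a description only.

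The members were also compared by their pattern over the 12 libraries. The points of these correlations share library, depth and temperature, and they are given as a description. Among the members, miR-995-5p and miR-998-3p ran most closely together over all libraries (Pearson r 0.903, Spearman rho 0.951, n = 12), with r 0.768 within temperatures. Within temperatures the closest members were miR-995-3p and miR-998-3p (r 0.844, over all libraries 0.482). The arms of mir-285 did not run together, with r -0.348 for miR-285-5p and miR-285-3p. The 3p arm miR-285-3p had negative correlations with every other member and neighbour arm except miR-998-5p (r 0.0449, within temperatures 0.525). Of the neighbours, miR-11-5p ran with miR-995-5p from another locus (r 0.743, within temperatures 0.882) and with miR-998-3p (r 0.712, within temperatures 0.853), and miR-11-3p ran against miR-285-3p (r -0.781, within temperatures -0.818).

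Of the 160 miRNAs of other hairpins with a mean of at least 100 reads, miR-1000-3p was the most like miR-285-5p (r 0.955, rho 0.951, n = 12), followed by miR-277-5p (0.948) and miR-34-3p (0.942). All of these were higher at 18°C than at 29°C, by 1.02, 1.65 and 1.55 on the log2 scale, and within temperatures the r of miR-1000-3p was 0.483. The pattern nearest to miR-998-3p was that of miR-2c-3p (r 0.965, within temperatures 0.918), followed by miR-34-3p (0.957) and miR-210-5p (0.956). Nearest to miR-995-5p were miR-2a-2-5p (0.943, within temperatures 0.941), miR-2c-3p (0.939) and miR-34-3p (0.914). Thus miR-34-3p was among the nearest patterns of 3 members. The arms that passed no temperature comparison had other nearest patterns, miR-317-3p for miR-995-3p (r 0.874, within temperatures 0.879) and miR-1003-3p for miR-285-3p (r 0.839, within temperatures 0.841). The nearest to miR-998-5p was bantam-5p (r 0.922, rho 0.797, within temperatures 0.700).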

How the data were processed

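The authors assigned reads of AGO1 immunoprecipitates to mature miRNAs of miRBase 21 with miRExpress; the library kit was NEBNext. The deposited values are a signal, reads divided by one size factor per library (0.392 to 1.52). Of 4896 values, 100% came out within 0.01 of whole reads. In the table, 5 of 408 rows repeated another row and were dropped from the levels. Arm ratios kept them, so some of the hairpins tested for the arm ratio share the reads of an arm. The main test was limma 3.58.1 (R 4.3.3; trend, robust) on log2(value + 1), 1 model of 3 temperatures over 12 libraries, on 244 miRNAs passing filterByExpr, with Benjamini-Hochberg adjustment. Calls needed an adjusted p under 0.05 and a log2 fold change over 1 in size, as in the study's methods, which used DESeq2. Such fold changes understate changes of miRNAs with few reads. Arm ratios were log2((5p reads + 0.5)/(3p reads + 0.5)), called on the adjusted p alone. Alternatives were edgeR 4.0.16 and DESeq2 1.42.0 on recovered reads (all values came out whole), TMM, scaling to total reads, pseudocounts, filters and single libraries left out. The fits were tested on simulated data. Deviations from the temperature means correlated over 0.1 in all 4 pairs of 25°C and 29°C libraries of the same time point (r 0.226 to 0.445) and in 0 of 8 pairs with 18°C, so the time point pairs libraries only between 25°C and 29°C. Named were both arms of each member, hairpins within 10 kb, and for each arm the 3 most correlated miRNAs; other miRNAs of the same seed were not searched. Members and lists were chosen with earlier results of these data known. No molecular identifiers were used, so counting errors cover counting only.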

Additional observations from a re-analysis of the deposited data

Results flagged for a closer look

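In 33 groups of 4 libraries (11 quantities at 3 temperatures), 4 held a library that stood apart from the other 3 by Dixon's criterion at the 95% level, where chance alone gives about 1.65. At 18°C the ZT9 library had a log2 arm ratio of mir-285 of 1.23, against 0.66 to 0.75 in the others, toward the 5p arm. At 18°C the ZT3 library had a log2 arm ratio of mir-995 of 0.11, against 0.52 to 0.58, so that its arms were nearly equal. At 25°C the ZT21 library had a log2 arm ratio of mir-998 of -5.33, against -5.16 to -5.14, a small shift in a group whose other values lay close together. The same library had a summed level of the 3p arms of 10247, against 8342 to 8527 in the other libraries at 25°C. It was the highest at 25°C for miR-285-3p, miR-995-3p and miR-998-3p alike. This was not particular to the 3p arms, as it was also the highest for miR-995-5p and miR-998-5p, while miR-285-5p was highest at ZT9.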

How the results depend on the processing

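Of 1266 values recomputed under another setting, 1201 counted as the same, 31 changed sign, 14 counts or sums moved, and 11 gained and 9 lost the adjusted p threshold. For a tested value, the same means its direction and its side of the adjusted p threshold, not of the 2-fold limit. Counts of miRNAs or hairpins also counted as the same after a moderate change. Sums, and ratios of pairs with a library left out, did so when they moved by less than an SD. The difference of miR-285-5p between 18°C and 29°C was called in all of its alternatives (1.71 to 1.81, and 1.64 to 1.78 with a library left out). Changes of sign concerned log2 values near 0 that passed under no setting. Scaled to total reads, miR-995-3p was at 0.063 (18°C against 29°C), 0.035 (18°C against 25°C) and -0.028 (29°C against 25°C), and at -0.035 in the last with TMM. Between 29°C and 25°C, miR-285-3p was at 0.0029 with edgeR and 0.0093 with DESeq2, and miR-11-5p at 0.0024 with DESeq2. With a library left out, miR-995-3p ranged from -0.23 to 0.11, from -0.19 to 0.17 and from -0.15 to 0.22 in the 3 comparisons, and between 29°C and 25°C miR-285-3p ranged from -0.11 to 0.10 and miR-11-5p from -0.12 to 0.078. The arm ratio of mir-11 ranged from -0.16 to 0.0031 (18°C against 25°C) and from -0.0060 to 0.16 (29°C against 25°C), and the ratio of miR-285-3p to miR-995-3p from -0.34 to 0.22. Between 18°C and 29°C, miR-998-3p ranged from 0.29 to 0.38 (adjusted p 0.0117 to 0.0607), the arm ratio of mir-995 from 0.48 to 0.73 (0.00891 to 0.0876) and that of mir-998 from 0.36 to 0.63 (0.0105 to 0.161); the cause was not tested. Between 18°C and 25°C, the count of called members was 0 with TMM and 0 to 1 with a library left out. The log2 ratio of the 3p sums was 0.20, and 0.30 scaled to total reads.

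With at least 100 reads in both arms, where fewer hairpins are tested, the arm ratio of mir-998 between 18°C and 29°C, still 0.45, had an adjusted p of 0.0450, and that of mir-285 between 29°C and 25°C, still -0.65, one of 0.0384. With the time point as replicate block over 12 libraries these arm ratios were 0.45 (adjusted p 0.0384) and -0.65 (0.0342), and no other call of a member changed. With the block over the 8 libraries of a comparison, chosen after seeing the data, no call of a member changed. The one member result that lost the adjusted p threshold was miR-998-3p between 18°C and 29°C (0.34, limma adjusted p 0.0707), which is under the 2-fold limit in either fit. The count of all miRNAs called between 18°C and 29°C was 39, and 18 with a mean of at least 100 reads. It was 10 between 18°C and 25°C, and 6 with a pseudocount of 10 and 4 with at least 100 reads. It was 8 between 29°C and 25°C, and 2 with a pseudocount of 10, 1 with at least 100 reads, 1 scaled to total reads and 5 without the 25°C ZT3 library. At the adjusted p alone it was 29 in this comparison, and 19 without the 25°C ZT3 or the 29°C ZT9 library. Arm ratios called between 18°C and 25°C numbered 22, and 14 without the 18°C ZT3 or the 25°C ZT3 library. Arm ratios fitted without a trend between mean and variance, an alternative chosen after seeing the data, changed no call of a member. Depth limits miR-998-5p most.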
